A study of Mus musculus with 31 samples.

Results

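The genes described are the 3 MEF2 family members *Mef2a*, *Mef2c* and *Mef2d* and 6 other transcription factors of the microglial lineage, *Spi1* (which encodes PU.1), *Irf8*, *Runx1*, *Cebpa*, *Maf* and *Sall1*. They were taken by gene name, 9 of the 55401 genes counted, and each name matched 1 gene. Counts came from 31 RNA-seq libraries of mice of 13 months of age. CD11b+ microglia, captured with magnetic beads from dissociated brain, were from 3 WT and 4 PLCγ2-P522R KI males without amyloid transgenes, and from female A-/Pwt/wt (n = 7), A+/Pwt/wt (n = 4) and A+/Pki/ki (n = 4) mice. Temporo-occipital cortex was from female A-/Pwt/wt (n = 1), A+/Pwt/wt (n = 4) and A+/Pki/ki (n = 4) mice. A+ mice carry APPswe and PS1dE9 under the mouse prion protein promoter, ki is the CRISPR/Cas9 knock-in of PLCγ2-P522R, and both lines are on the C57BL/6J background. CD11b is also borne by other myeloid cells, so the beads select no microglia-specific marker. The batch tags in the labels separate all male libraries (b1), all A+ female (b2) and all A- female CD11b+ libraries (b3), so that tag, sex and transgenes cannot be told apart, while both KI comparisons in CD11b+ microglia lie within 1 tag. The study had picked out the 3 MEF2 genes from the male libraries, so their direction there is not independent evidence.

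PU.1 is the ETS factor without which macrophages and microglia do not form, and IRF8, RUNX1 and C/EBPα act with it in myeloid development. SALL1 is, in the brain, largely restricted to microglia among myeloid cells and keeps their homeostatic identity, and MAF is a leucine zipper factor of mature macrophages. MEF2 proteins are MADS-box factors that bind A/T-rich sites and also serve neurons and muscle. Class II histone deacetylases hold them inactive, and calcium acting through calcineurin and calmodulin-dependent kinases releases them. PLCγ2 produces the inositol phosphate that opens calcium stores, which is the textbook link between the enzyme and the MEF2 family.

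The start-site regions of the MEF2 genes are shown because the 3 genes are compared as a family throughout. RefSeq start-site windows (GRCm38.p6, 250 bases before to 50 after each start) were given for 7 of the 9 genes, 13 windows in all, and were searched on both strands for the letters TAAAAATA (MEF2), GAGGAAGT (PU.1), TGTGGT (RUNX), TTGCGCAA (C/EBP) and TGCTGAC (MAF), none of which contains another. Capitals mark matches. The run of *Mef2a* on the minus strand (chr7:67372852-67373108) ends in a MEF2 match that lies across the start site itself. The runs of *Mef2c* (chr13:83503784-83504033, plus strand) and *Mef2d* (chr3:88142122-88142371, plus strand) are the 250 bases before the first listed start and hold no match. The *Runx1* run (chr16:92826025-92826054, minus strand) is a 30-base piece after its distal start with 2 RUNX matches, both on the opposite strand.
Mef2a: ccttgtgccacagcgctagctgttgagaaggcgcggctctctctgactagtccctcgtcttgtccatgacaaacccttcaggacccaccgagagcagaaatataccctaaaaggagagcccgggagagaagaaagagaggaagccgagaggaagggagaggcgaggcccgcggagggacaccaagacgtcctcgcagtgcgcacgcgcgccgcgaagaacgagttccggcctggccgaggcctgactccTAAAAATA
Mef2c: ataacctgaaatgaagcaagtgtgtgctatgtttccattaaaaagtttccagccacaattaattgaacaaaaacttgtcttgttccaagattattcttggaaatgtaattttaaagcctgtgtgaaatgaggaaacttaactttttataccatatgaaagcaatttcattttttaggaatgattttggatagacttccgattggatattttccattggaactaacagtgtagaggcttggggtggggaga
Mef2d: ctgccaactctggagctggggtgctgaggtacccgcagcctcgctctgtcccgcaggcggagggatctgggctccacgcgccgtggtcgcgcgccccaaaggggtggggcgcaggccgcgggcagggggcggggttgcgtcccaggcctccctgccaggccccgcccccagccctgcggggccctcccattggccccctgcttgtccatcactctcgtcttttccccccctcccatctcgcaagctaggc
Runx1: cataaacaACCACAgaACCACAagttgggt

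The MEF2 letters occur in 2.72% of the 32851 start-site windows in the reference and the RUNX letters in 16.8%. The PU.1, C/EBP and MAF letters occur in 3.2%, 0.183% and 4.67% and are in none of the 13 windows. The printed *Mef2c* run has a GC content of 33.6% and holds 1 CpG, against 73.2% and 19 CpGs in that of *Mef2d* and 59.9% and 21 CpGs in that of *Mef2a*. A match is a run of letters and not a measured binding site. In the GRCm38 annotation *Mef2a* lies at chr7:67231163-67372858 (minus strand), *Mef2c* at chr13:83504034-83667080 and *Mef2d* at chr3:88142372-88172086 (both plus strand). *Spi1* lies at chr2:91082390-91115756, *Irf8* at chr8:120736358-120756694 and *Cebpa* at chr7:35119293-35121928 (all plus strand). *Runx1* lies at chr16:92601466-92826149, *Maf* at chr8:115682942-115707794 and *Sall1* at chr8:89027235-89044162 (all minus strand).

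Total counts were 16229831 to 25118180 per CD11b+ library and 25226544 to 43129427 per cortex library, and no gene of the 9 had fewer than 603 counts in a CD11b+ library or 55 in a cortex library. The summed CPM of 8 microglial markers was 11539 to 25239 in CD11b+ libraries and 363 to 835 in cortex, and no CD11b+ library overlapped a cortex library. Neuron markers were counted in the CD11b+ libraries too, where none of 17 was at 0 throughout a group and their sum ran from 198 to 5109.7 CPM (15257 to 16466 in cortex). The libraries of A-/Pwt/wt mouse 223 (5109.7 CPM) and A+/Pki/ki mouse 335 (2361 CPM) held the highest neuron sums. The sum of 9 oligodendrocyte markers ran from 6951 to 77570 CPM in CD11b+ and from 3967 to 6656 CPM in cortex libraries. Single markers differed in direction. Between A+/Pwt/wt microglia and A+/Pwt/wt cortex, 2 of the 9 were called higher in microglia and 5 lower. Mouse number 236 stands in the labels of an A-/Pwt/wt CD11b+ library and of an A+/Pwt/wt cortex library, which cannot be 1 mouse, and each label was followed. *Plcg2*, the edited gene, was 230.1, 234 and 231 CPM in male WT mice 94, 101 and 102 and 207, 206, 162 and 164 CPM in KI mice 84, 104, 136 and 139 (log2FC −0.36 ± 0.11 (SE), adjusted p = 0.0581), and gene counts cannot show the exchanged codon.

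The 9 genes differed widely in level. Per kb of exon, the mean over male WT libraries was highest for *Cebpa* (176 ± 30.4 CPM per kb, SD, n = 3), *Sall1* (134 ± 5.5) and *Spi1* (101 ± 1.62). *Irf8* (54.9 ± 3.01) and *Maf* (51.6 ± 5.57) followed, then *Mef2a* (29.9 ± 1.28), *Mef2d* (28.7 ± 1.68) and *Mef2c* (19.4 ± 0.768), and *Runx1* was the lowest (7.7 ± 0.199). *Irf8* and *Maf*, and *Mef2a* and *Mef2d*, differed by less than the larger SD of the pair. In A+/Pwt/wt cortex the order was led by *Mef2d* (42 ± 2.26 CPM per kb, n = 4) and *Mef2c* (34.1 ± 5.56), with *Mef2a* at 10.6 ± 0.777, *Cebpa* at 10.3 ± 1.18 and *Runx1* at 0.32 ± 0.0361. The length used is that of all annotated exons joined (*Mef2a* 14.7 kb, *Mef2c* 15.7 kb, *Mef2d* 5.985 kb), not of the isoforms expressed. Without division by length, the mean in this cortex group was 536 CPM for *Mef2c* and 251 CPM for *Mef2d*.

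All 9 genes passed the test between A+/Pwt/wt CD11b+ microglia and A+/Pwt/wt cortex, 7 higher and 2 lower in microglia (background 37.7% and 40.2% of 18541 genes tested). *Irf8* was 19.9, 20.8, 19.7 and 17.5 CPM in cortex of mice 236, 257, 259 and 329 and 292, 429, 340.0 and 399 CPM in microglia of mice 331, 367, 375 and 380, a log2FC of 4.51 ± 0.16 (SE, adjusted p = 3.26e-09). *Runx1* (log2FC 4.44), *Spi1* (4.35), *Cebpa* (3.97), *Sall1* (3.88) and *Maf* (3.11) were likewise higher in microglia. The MEF2 genes split. *Mef2a* was 145, 160.4, 149 and 170.0 CPM in cortex and 224, 321, 355 and 308 CPM in microglia (log2FC 1.23 ± 0.15 (SE, adjusted p = 1.69e-05)). *Mef2c* was 436, 638, 569 and 502 CPM in cortex and 184, 350.0, 329.9 and 297 CPM in microglia, lower by a log2FC of −0.60 ± 0.20 (SE, adjusted p = 0.0184). *Mef2d* was 231, 259.9, 257 and 258 and 113, 166, 148 and 155 CPM (log2FC −0.51 ± 0.13 (SE, adjusted p = 0.00414)). The call of *Mef2c* rested on cortex mouse 257, without which its log2FC was −0.51 (adjusted p = 0.053). Tissue, extraction kit and table differ together in this comparison, and in bulk samples fewer cells of a type and less RNA per cell cannot be told apart.

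Over all genes tested 37.7% were called higher in microglia and 40.2% lower. Of 13 microglial targets, 13 were called higher in microglia and 0 lower (median log2FC 4.72), and the lowest adjusted p belonged to *Tmem119* (log2FC 4.69), *Olfml3* (4.54), *Sparc* (3.67) and *Siglech* (5.00). Of 19 relatives of the lineage factors tested, 18 were called higher and 1 lower, with the lowest adjusted p for *Irf1* (3.33), *Irf5* (4.75), *Irf9* (2.54) and *Mafk* (2.37). Of 29 other myeloid factors tested, 24 were called higher and 3 lower, with the lowest adjusted p for *Fli1* (4.16), *Lyl1* (4.19), *Ets1* (3.46) and *Ikzf1* (4.72). Of 24 regulators of MEF2 tested, 10 were called higher and 10 lower, shares close to those over all genes. Among them the NFAT factor gene *Nfatc1* was higher in microglia (log2FC 3.72), and the calcineurin subunit genes *Ppp3r1* (−2.74), *Ppp3ca* (−2.73) and *Ppp3cb* (−1.98) were lower. The CD11b+ libraries also held more of 10 of 10 endothelial and mural markers (median log2FC 3.15, all called). The same held for 10 of 10 border macrophage markers (4.26) and 9 of 9 neutrophil markers tested (6.99). All 17 neuron and 10 astrocyte markers were called lower. Which cells the higher genes came from was not tested.

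Within the family, *Mef2a* held 32.6% ± 1.79 (SD, n = 4) of the MEF2 level per kb in A+/Pwt/wt microglia and 12.3% ± 1.01 in A+/Pwt/wt cortex. The share of *Mef2c* was 28.9% ± 2.39 and 39.1% ± 3.05, and that of *Mef2d* 38.6% ± 2.42 and 48.6% ± 2.18. The order of the genes rests on the exon lengths used. By CPM the mean of *Mef2a* (302) stood above those of *Mef2c* (290) and *Mef2d* (145) in A+/Pwt/wt microglia. In male WT microglia the shares of *Mef2a*, *Mef2c* and *Mef2d* were 38.3% ± 1.56, 24.8% ± 0.742 and 36.8% ± 2.22 (n = 3), and in male KI microglia 35.3% ± 2.7, 24.6% ± 1.33 and 40.1% ± 3.42 (n = 4). The means of the male groups differed by less than the larger SD for *Mef2c* and *Mef2d* and by slightly more than it for *Mef2a*.

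**Figure D1:**
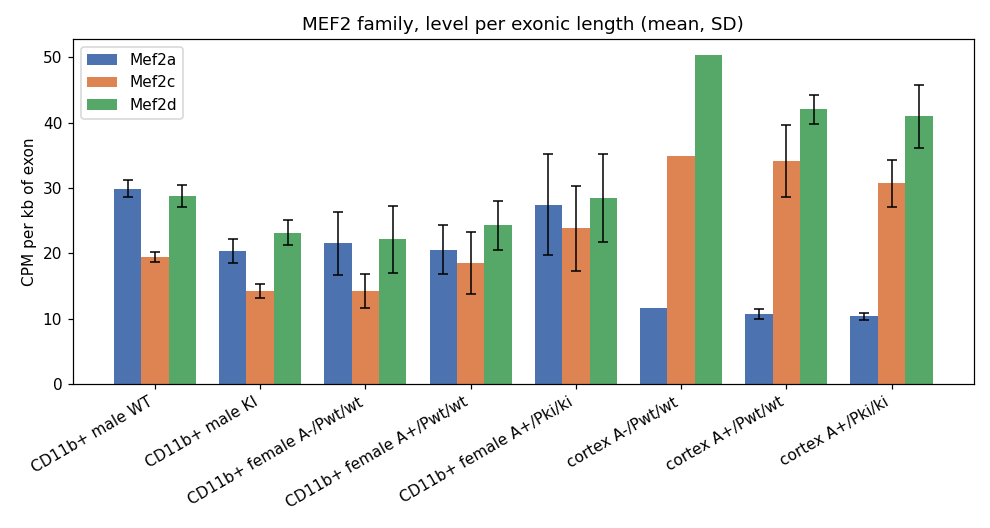
Level of *Mef2a*, *Mef2c* and *Mef2d* in CPM per kb of exon (y axis) in the 8 groups (x axis), bars giving the mean and error bars the SD (none for the single A-/Pwt/wt cortex library). The mean of *Mef2a* stands above that of *Mef2c* in every CD11b+ group, and in cortex *Mef2a* has the lowest mean of the family.

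In relation to the P522R variant without amyloid, the male KI libraries held less of 5 of the 9 genes, *Mef2a*, *Mef2c*, *Mef2d*, *Runx1* and *Sall1*, and the fold for each lay between 0.639 and 0.788. None was called higher, and with libraries scaled on microglial genes none was called lower and *Mef2d*, *Spi1* and *Maf* had log2FC just above 0. Of all 16373 genes tested 5.26% were called lower, and the median log2FC was −0.39 over the 9 genes and −0.0012 over all genes tested. *Mef2a* was 453, 446 and 417 CPM in WT mice 94, 101 and 102 and 278, 338, 299 and 283 CPM in KI mice 84, 104, 136 and 139 (log2FC −0.59 ± 0.11 (SE, adjusted p = 0.00858)). *Mef2c* was 306, 315 and 291 CPM in WT and 232, 241, 210.1 and 209 CPM in KI libraries (log2FC −0.48 ± 0.10 (SE, adjusted p = 0.0112)). *Mef2d* was 161, 172 and 182 CPM in WT and 149, 124, 147 and 134 CPM in KI libraries (log2FC −0.34 ± 0.10 (SE, adjusted p = 0.0477)). For each MEF2 gene every KI library lay below every WT library, and *Mef2d* had the narrowest gap.

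**Figure D2:**
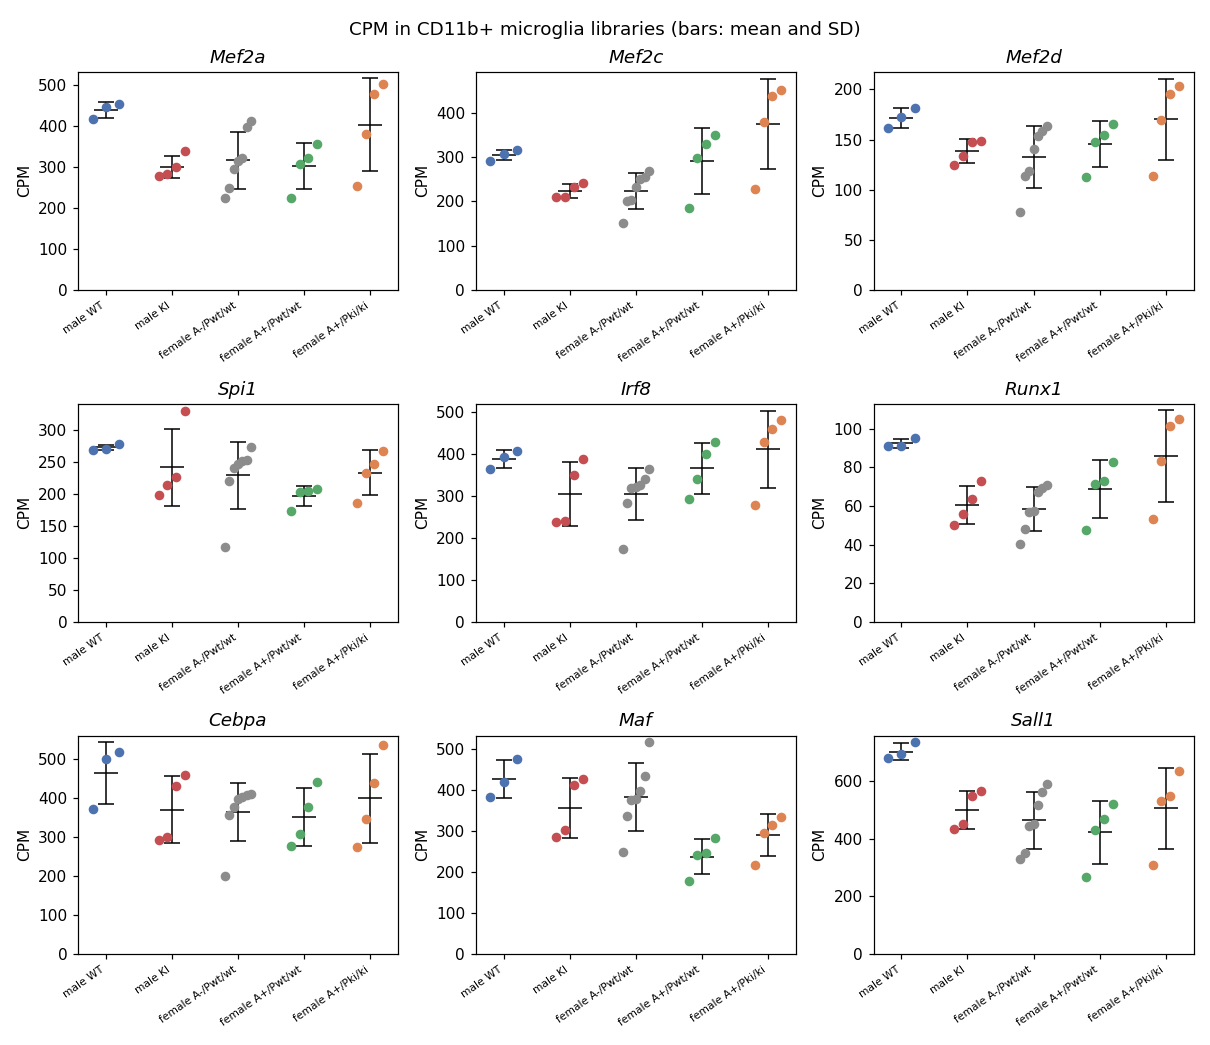
CPM (y axis) of the 9 genes in the 22 CD11b+ libraries by group (x axis), with 1 point per library and the mean and SD as bars. The male KI points of *Mef2a*, *Mef2c*, *Mef2d*, *Runx1* and *Sall1* all lie below the male WT points, while those of *Spi1*, *Irf8*, *Cebpa* and *Maf* overlap them.

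*Runx1*, the DNA-binding partner of CBFβ, had 91, 95.3 and 91.4 CPM in the WT mice and 72.8, 63.7, 55.8 and 50.2 CPM in the KI mice, with a log2FC of −0.65 ± 0.12 (SE, adjusted p = 0.00916). *Sall1* had 679, 695 and 735 and 566, 549, 452 and 433 CPM, with a log2FC of −0.53 ± 0.13 (SE, adjusted p = 0.0239). KI and WT ranges did not overlap for these 2 genes either, and the lack of overlap with KI lower held for 5 of the 9 genes and 12.3% of all genes tested.

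*Spi1* and *Irf8*, whose products bind DNA as partners, did not pass the test. *Spi1* was 269, 277 and 271 CPM in WT and 226, 330.2, 198 and 213 CPM in KI libraries (log2FC −0.21 ± 0.16 (SE; 95% CI −0.58 to 0.16; adjusted p = 0.405)). KI mouse 104 had the highest *Spi1* of the 7 libraries and the other 3 KI mice the lowest. *Irf8* was 364, 406 and 392 CPM in WT and 348, 387, 238 and 240.1 CPM in KI libraries (log2FC −0.39 ± 0.17 (SE; 95% CI −0.78 to 0.00; adjusted p = 0.152)). *Cebpa*, at 372, 518 and 502 CPM in WT and 430.3, 458, 293 and 299 CPM in KI libraries, had a log2FC of −0.36 ± 0.19 (SE; 95% CI −0.78 to 0.06; adjusted p = 0.212). *Maf*, at 383, 419 and 474 CPM in WT and 426, 411, 301 and 284 CPM in KI libraries, had a log2FC of −0.30 ± 0.16 (SE; 95% CI −0.66 to 0.07; adjusted p = 0.234). In each of these 4 genes KI mice 136 and 139 were below every WT mouse and mouse 104 lay within or above the WT range.

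Markers of other brain cells moved with the male comparison. The sum of the 17 neuron markers was 220.4 to 320.0 CPM in WT and 725 to 1593 CPM in KI libraries, and 17 of 17 were called higher in KI. The sum of the 10 astrocyte markers was 615 to 779 and 1093 to 2226 CPM, with 10 of 10 called higher, and that of the 9 oligodendrocyte markers 17213 to 22133 and 25805 to 57264 CPM, with 6 of 9 called higher. The share of counts from mitochondrial genes was 3.97% to 5.02% in WT and 7.4% to 12.8% in KI libraries. The 8 microglial markers summed to 23058 to 23444 CPM in WT and 14249 to 25239 CPM in KI libraries, with 8 of 8 log2FC below 0 and 0 called. None of these markers was at 0 in either group, and their part in the result was not tested.

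With TMM, 15 of 15 pan-microglial genes had log2FC below 0 (median −0.26, 1 called lower). Libraries were also scaled on these 15 genes in place of TMM, which moved the median log2FC of all genes to 0.33. None of the 9 genes was called in that fit, and 1361 of 16373 genes tested were. The log2FC was then −0.33 for *Runx1* (adjusted p = 0.375), −0.26 for *Mef2a* (0.431), −0.21 for *Sall1*, −0.16 for *Mef2c* and 0.01 for *Mef2d*, which changed sign. Without any 1 of WT mice 94, 101 and 102 the count of the 9 genes called was 0, with *Mef2a* at −0.53 to −0.59. Over all genes 1111, 1236 and 894 were called in these fits, against 2685 of 16373 with all libraries. The count was 3 without KI mouse 136 or 139 (*Mef2a*, *Mef2c* and *Runx1*), with 1771 and 1353 genes called in all. Without KI mouse 104 it was 7, when *Spi1* and *Irf8* joined, and 5439 of 16242 genes tested were called.

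**Figure D3:**
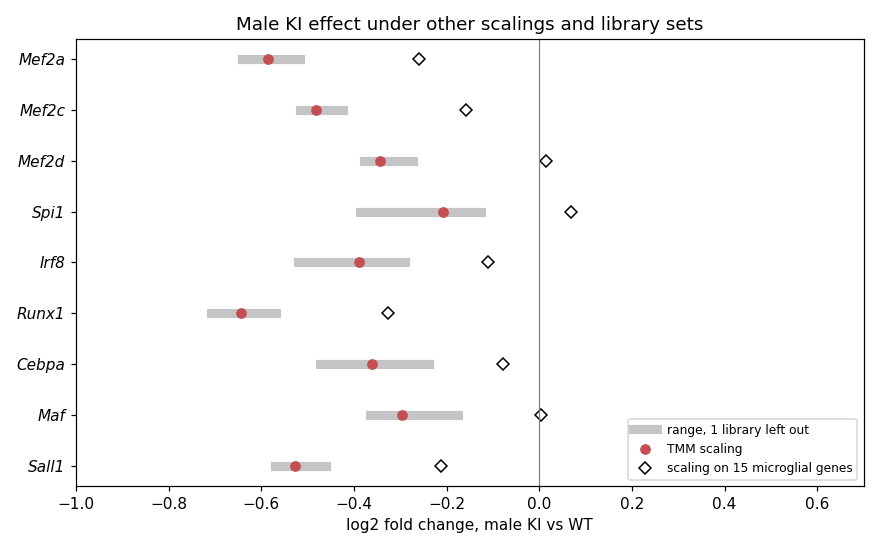
log2 fold change of male KI against WT (x axis) for the 9 genes (y axis) with TMM scaling (filled circles), with scaling on 15 microglial genes (open diamonds) and over the 7 fits that each leave out 1 library (grey bars). All grey bars stay below 0, and the diamonds stand closer to 0, with *Mef2d*, *Spi1* and *Maf* at or above it.

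Several annotated genes share ground with the 9 loci, and the authors counted irrespective of strand. Of 8 overlapping genes, 5 share exonic bases with a member, all on the other strand. *Lysmd4*, which shares 302 exonic bases with *Mef2a*, was 9.85 CPM (mean) in male WT and 9.93 CPM in male KI libraries (log2FC −0.02 ± 0.16 (SE), adjusted p = 0.942). *Gm44667*, a transcript inside *Mef2a* on its strand without shared exons, was 21.6 CPM (mean) in WT and 8.47 CPM in KI libraries, and was called lower (log2FC −1.38 ± 0.33, adjusted p = 0.0225). The antisense genes *1700113A16Rik* (*Mef2d*), *Gm26626* (*Runx1*), *Gm45091* (*Cebpa*), and *Gm44668*, which lies inside *Mef2a* on its strand without shared exons, had means of at most 1.08 CPM in every group, and *Gm15655* (*Maf*) and *Gm20388* (*Irf8*) were at 0 counts throughout.

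Among 25 regulators and partners of MEF2, 24 were tested in males, of which 1 was called higher (background 11.1%) and 3 lower (background 5.26% for this and the other lists), with a median log2FC of −0.07. *Nfatc2*, a calcineurin target, fell from 91 CPM to 63.9 CPM (log2FC −0.54 ± 0.10, adjusted p = 0.00922). The kinase gene *Camk1d* fell from 122 CPM to 88.9 CPM (log2FC −0.49 ± 0.10, adjusted p = 0.0106) and *Nfatc1* from 121 CPM to 95.3 CPM (log2FC −0.37 ± 0.10, adjusted p = 0.0288). The gene that rose was *Camk4*, a calmodulin-dependent kinase gene below the level set for naming and named after its value was seen (log2FC 1.35 ± 0.33, adjusted p = 0.0246). *Camk4* was also lower in microglia than in cortex (log2FC −3.59), and the neuron markers given above rose in the male comparison. Their part in the rise of *Camk4* was not tested. Among 23 relatives of the lineage factors, 21 were tested and 2 were called lower (median log2FC −0.16). They included *Sall3*, from 119 CPM to 78.4 CPM (log2FC −0.64 ± 0.13, adjusted p = 0.0126). Of 30 other myeloid factors 6 were called lower and 0 higher (median −0.26). They included *Tgif1*, from 62 CPM to 39.1 CPM (log2FC −0.70 ± 0.14, adjusted p = 0.0113), *Elf4*, from 91.6 CPM to 61.8 CPM (log2FC −0.60 ± 0.13, adjusted p = 0.0141), *Smad3*, from 120.3 CPM to 95.2 CPM (log2FC −0.37 ± 0.09, adjusted p = 0.0209), and *Ikzf1*, from 267 CPM to 196 CPM (log2FC −0.48 ± 0.11, adjusted p = 0.0218). None of 13 microglial target genes of these factors passed (median −0.39).

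On the APP/PS1 background the same allele was compared in CD11b+ microglia of A+/Pki/ki and A+/Pwt/wt females, and none of the 9 genes was called (background 0% of 17039 genes tested, with 575 genes and 0 of the 9 at an unadjusted p under 0.05, and 7 genes and 0 of the 9 called by DESeq2). All 9 estimates were above 0 (with microglial scaling *Irf8* was at −0.0075), with a median log2FC of 0.26 (0.00 over all genes tested). The 8 microglial markers also had 8 of 8 log2FC above 0 (median 0.22, 0 called). Of the 17 neuron markers, 17 were below 0 (median −0.84, 0 called). The relation of the 9 estimates to these markers was not tested. *Mef2a* was 224, 321, 355 and 308 CPM in A+/Pwt/wt mice 331, 367, 375 and 380 and 379, 252, 502 and 478 CPM in A+/Pki/ki mice 244, 335, 394 and 405 (log2FC 0.41 ± 0.24 (SE; 95% CI −0.13 to 0.96; adjusted p = 0.853)). *Mef2c* was 184, 350.0, 329.9 and 297 and 378, 229, 438 and 451 CPM (95% CI of the log2FC −0.25 to 0.97), and *Mef2d* 113, 166, 148 and 155 and 169, 114, 203 and 195 CPM (−0.24 to 0.69). In all 3 MEF2 genes mice 331 and 335 were the lowest of their groups and mice 394 and 405 the highest of the 8 libraries.

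*Spi1* was 173, 208, 204 and 202 CPM in A+/Pwt/wt and 232, 186, 267 and 247 CPM in A+/Pki/ki libraries (95% CI −0.07 to 0.55). *Irf8* was 292, 429, 340.0 and 399 and 428, 277, 479.8 and 459 CPM (−0.29 to 0.63), and *Runx1* 47.6, 82.9, 71.6 and 73.2 and 83.4, 53.1, 105 and 102 CPM (−0.24 to 0.88). *Sall1* was 267, 522, 469 and 430.0 and 549.5, 307, 531 and 636 CPM (−0.36 to 0.88). The remaining factors, *Cebpa* at 276, 442, 309 and 378 and 347, 273, 538 and 439 CPM and *Maf* at 177, 282, 242 and 246 and 294, 215, 314 and 334 CPM, had intervals of −0.36 to 0.73 and −0.14 to 0.71. The ranges of the groups overlapped for all 9 genes (2.29% of genes tested did not overlap). The neuron marker sum was 986 to 1990.3 CPM in A+/Pwt/wt and 198 to 2361 CPM in A+/Pki/ki libraries. A+/Pki/ki mouse 335 had the highest and mice 394 and 405 the lowest of the 8. The sum of 9 oligodendrocyte markers was 22373 to 54479 and 6951 to 67063 CPM, with the same mice highest and lowest. That of 10 neutrophil markers was 52.3 to 156 and 43.5 to 1990.4 CPM. Their part in the result was not tested. Without mouse 335 none of the 9 was called either, with *Mef2a* at 0.61 and *Spi1* at 0.36 (log2FC, adjusted p = 0.113 and 0.117). Of the related genes tested, 24 MEF2 regulators, 21 relatives of the lineage factors, 30 other myeloid factors and 13 microglial targets, none was called.

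The male and female KI effects were set against each other in 1 fit. The difference, male minus female, was below 0 for all 9 genes (median −0.55), and none was called (0% of 17619 genes tested, with 4664 genes and 5 of the 9 at an unadjusted p under 0.05). It was −0.97 ± 0.28 (SE; 95% CI −1.57 to −0.37; adjusted p = 0.143) for *Mef2a*, −0.93 ± 0.30 (SE; 95% CI −1.58 to −0.28; adjusted p = 0.143) for *Runx1* and −0.82 ± 0.31 (SE; 95% CI −1.47 to −0.16; adjusted p = 0.146) for *Mef2c*. DESeq2 called 1185 of 17619 genes tested, among them *Mef2a* and *Runx1*. A further fit left out A+/Pki/ki mouse 335, the library with the highest neuron marker sum of the 4 groups. There edgeR called 8 of the 9 genes and 6199 of all 17495 genes tested, with *Mef2a* at −1.23 (adjusted p = 0.00137). With all libraries none of 24 MEF2 regulators, 22 relatives of the lineage factors, 30 other myeloid factors and 13 microglial targets was called. The 8 microglial markers had 8 of 8 differences below 0 as well (median −0.54, 0 called). Of the 17 neuron markers, 17 were above 0 (median 2.93, 0 called). The relation of the 9 genes to these markers was not tested. Sex, transgenes and tag differ together between the 2 effects and cannot be told apart.

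**Figure D4:**
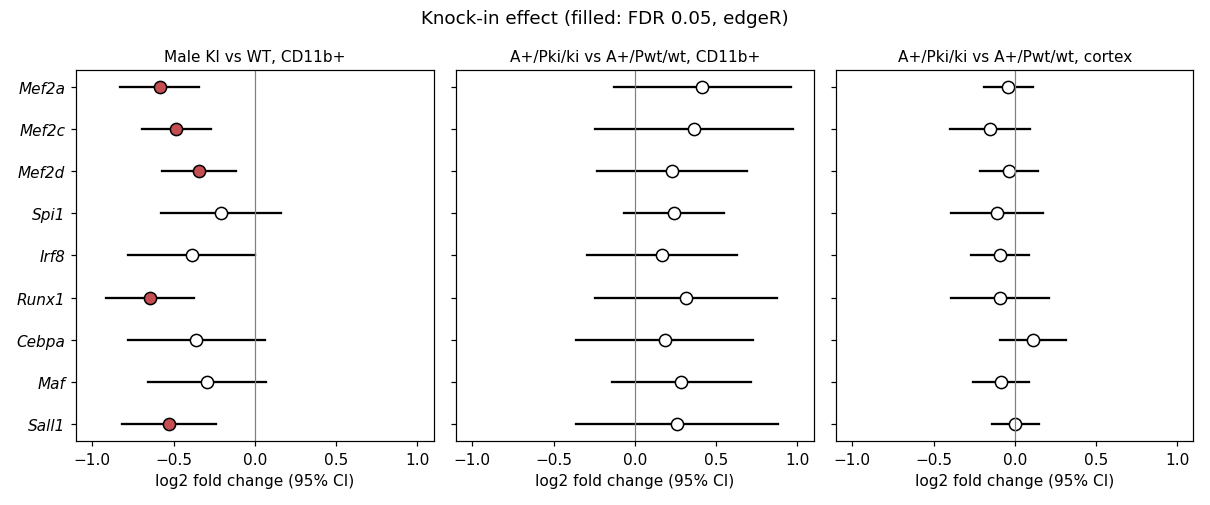
log2 fold change with its 95% CI (x axis) of the 9 genes (y axis) for the P522R knock-in in male CD11b+ microglia, in A+ female CD11b+ microglia and in A+ female cortex, with filled circles for genes called at FDR 0.05. With TMM scaling the 9 estimates are below 0 in males and above 0 in A+ females, where every interval crosses 0 (with microglial scaling *Mef2d*, *Spi1* and *Maf* change sign in males and *Irf8* in A+ females), and every cortex interval includes 0.

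In A+ cortex none of the 9 genes was called between A+/Pki/ki and A+/Pwt/wt mice (0% of 18640 genes tested, with 514 genes and 0 of the 9 at an unadjusted p under 0.05, and 11 genes and 0 of the 9 called by DESeq2). *Mef2c* was 436, 638, 569 and 502 CPM in A+/Pwt/wt mice 236, 257, 259 and 329 and 495, 553, 463 and 419 CPM in A+/Pki/ki mice 184, 203, 216 and 222 (log2FC −0.15 ± 0.11 (SE; 95% CI −0.40 to 0.09; adjusted p = 0.9997)). *Mef2a* was 145, 160.4, 149 and 170.0 and 160.1, 145, 144 and 157 CPM (−0.19 to 0.11), and *Mef2d* 231, 259.9, 257 and 258 and 228, 232, 288 and 233 CPM (−0.21 to 0.14). *Spi1* was 12.9, 13.8, 10.7 and 9.42 and 11.6, 12.1, 10.5 and 9.35 CPM (−0.39 to 0.17). None of 24 MEF2 regulators, 18 relatives of the lineage factors, 29 other myeloid factors and 13 microglial targets tested in cortex was called. The 9 log2FC ran from −0.15 (*Mef2c*) to 0.11 (*Cebpa*), 7 below 0 and 2 above, and the ranges of the groups overlapped for all 9 (1.85% of genes tested did not overlap). The single A-/Pwt/wt cortex library held 5.73 CPM of *Spi1*, 6.73 CPM of *Irf8*, 1.31 CPM of *Runx1*, 16.5 CPM of *Cebpa* and 27.4 CPM of *Sall1*, below each of the 8 A+ libraries. It held 301 CPM of *Mef2d*, above each of them. For *Mef2a*, *Mef2c* and *Maf* it lay within the range of the A+ libraries. With 1 library these differences have no replicate check. The share of all genes for which this library lay outside the A+ range was not computed, so no result is drawn from them. The microglial marker sum of this library was 363 CPM against 638 to 835 CPM in the A+ libraries.

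For the transgenes in the absence of the variant, A+/Pwt/wt microglia were compared with A-/Pwt/wt microglia, and none of the 9 genes was called (1.29% of 17355 genes tested were, and 1 of the 9 was at an unadjusted p under 0.05). *Maf* was lowest, median and highest at 247, 377 and 515 CPM in A-/Pwt/wt and was 177, 282, 242 and 246 CPM in A+/Pwt/wt mice (log2FC −0.70 ± 0.20 (SE; 95% CI −1.13 to −0.27; adjusted p = 0.146)). The A+ libraries all lay under the A- median, but the ranges overlapped because A-/Pwt/wt mouse 223 held 247 CPM. *Maf* was called lower by DESeq2 (−0.70, adjusted p = 0.0139), without mouse 223 (−0.80, adjusted p = 0.0194) and with scaling on microglial genes (−0.92, adjusted p = 0.0428). Over all genes 636, 497 and 153 were called in these fits, against 224 in the main fit. None of the other alternative fits called *Maf*. Beside it, 10 border macrophage markers summed to 837 to 1843 CPM in A- and 693 to 808 CPM in A+ libraries, with 10 of 10 log2FC below 0, 4 called lower and none at 0 in all libraries of a group. Their part in the result was not tested.

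*Mef2c*, at 150.4, 233 and 269 CPM in A- libraries (lowest, median and highest) and 184, 350.0, 329.9 and 297 CPM in A+ libraries, had a log2FC of 0.37 ± 0.20 (SE; 95% CI −0.06 to 0.81; adjusted p = 0.601). The intervals of the other genes all included 0 and were −0.50 to 0.35 for *Mef2a*, −0.31 to 0.55 for *Mef2d*, −0.66 to 0.21 for *Spi1*, −0.17 to 0.68 for *Irf8*, −0.19 to 0.64 for *Runx1*, −0.62 to 0.34 for *Sall1* and −0.51 to 0.39 for *Cebpa*. No gene had ranges without overlap (3.36% of genes tested did). Of 22 tested relatives of the lineage factors, 1 was called higher and 1 lower. *Maff*, a small MAF protein gene, rose from 6.95 CPM to 16.6 CPM (log2FC 1.25 ± 0.20, adjusted p = 0.0075), and *Cebpd*, a relative of *Cebpa*, fell from 50.0 CPM to 21.4 CPM (log2FC −1.24 ± 0.20, adjusted p = 0.00973). None of the 25 MEF2 regulators, 30 other myeloid factors and 13 microglial targets tested was called. The tag differs with the transgenes here, and the parts of tag and transgenes cannot be told apart.

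The level of the 9 genes also varied among the 7 A-/Pwt/wt libraries, which share genotype, sex and tag. *Mef2a* was 224, 313 and 412 CPM (lowest, median and highest), *Runx1* 40.5, 57.4 and 71 CPM and *Sall1* 328, 451 and 589.8 CPM. Over these 7 libraries log2 CPM was set against the log2 neuron marker sum (421 to 5109.7 CPM), 9 relations in all, with exact two-sided permutation tests. *Runx1* had r = −0.96 (p = 0.00139, adjusted 0.0125) and rho = −0.93 (p = 0.00675, adjusted 0.0607, exact permutation tests). *Sall1* had r = −0.90 (adjusted p = 0.0223, exact permutation test) and rho = −0.86 (adjusted 0.102), and *Mef2a* r = −0.87 (adjusted 0.0292) and rho = −0.82 (adjusted 0.102). Without the 2 libraries farthest from the median neuron sum, r was −0.92, −0.94 and −0.95 in that order. *Irf8* had r = −0.87 (adjusted p = 0.0308, exact permutation test) and rho = −0.68 (adjusted 0.197), with r = −0.56 without those libraries. *Spi1* and *Cebpa* had rho = 0.00, and their r of −0.71 and −0.71 rested on those 2 libraries, without which it was 0.54 and 0.16. The relations of the other genes did not pass the exact permutation test, with *Mef2c* r = −0.63 (adjusted p = 0.155) and rho = −0.68 (adjusted 0.197), *Mef2d* r = −0.26 (adjusted p = 0.55) and rho = −0.46 (adjusted 0.389) and *Maf* r = −0.75 (adjusted p = 0.111) and rho = −0.57 (adjusted 0.3). Without the 2 libraries r was −0.80, −0.82 and −0.42 in that order. In the same libraries the oligodendrocyte marker sum ran from 21411 to 77570 CPM and the share of mitochondrial counts from 5.10% to 24.5%. Both were highest in mouse 223, as was the neuron sum, and neither was set against the 9 genes. CPM values of a library share 1 total, and the part of the neuron RNA in these levels was not tested. The microglial marker sum was lowest in mouse 223 (11539 CPM). No genes other than the 9 were set against the neuron sum. Whether the relations are particular to the named genes was therefore not tested.

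**Figure D5:**
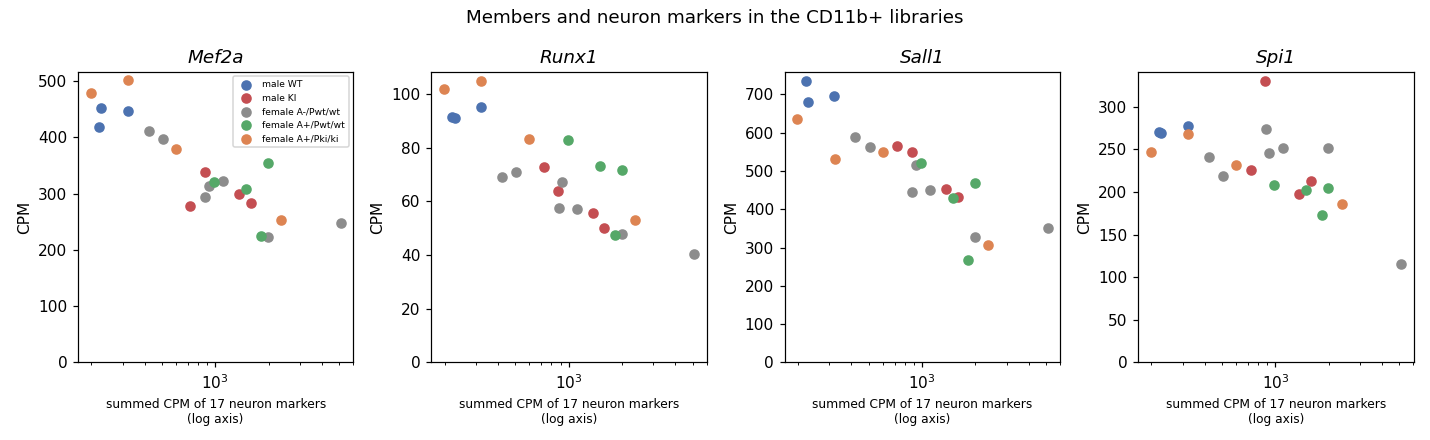
CPM of *Mef2a*, *Runx1*, *Sall1* and *Spi1* (y axes) against the summed CPM of 17 neuron markers (x axes, log scale) in the 22 CD11b+ libraries, with 1 point per library coloured by group. Male WT libraries lie at 220 to 320 CPM of neuron markers and male KI libraries at 725 to 1593 CPM, and *Spi1* of KI mouse 104 stands above all other points.

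Over the 5 CD11b+ groups the order of group means was seldom resolved. Of 36 pairs of neighbouring means, 2 differed by more than the larger SD of the pair. *Sall1* was 703 ± 29 CPM in male WT (SD, n = 3) and 506 ± 140.4 CPM in A+/Pki/ki (n = 4), the next group, and *Maf* was 289 ± 52.1 CPM in A+/Pki/ki and 236 ± 43.6 CPM in A+/Pwt/wt, the lowest group. *Mef2a*, *Mef2d*, *Spi1*, *Runx1*, *Sall1*, *Cebpa* and *Maf* had their highest mean in male WT and *Mef2c* and *Irf8* in A+/Pki/ki libraries. Each gene was also matched to the 2 genes of most like profile, by the root mean square difference of centred log2(CPM + 2) group means over the 5 groups (0.00764 to 0.0428 for the genes named, among 11343 genes). They included *Hpgds* and *Tmem104* for *Mef2a*, *Dyrk2* and *Slamf6* for *Mef2c*, *Nfatc1* for *Mef2d*, *Camk1* and *Fam214b* for *Spi1* and *Ptk2b* and *Ralgapa2* for *Irf8*. For *Runx1* they were *Adcy7* and *Nhlrc3*, for *Sall1* *Abi3* and *Elmo1*, for *Cebpa* *Nxf1* and *Prag1* and for *Maf* *Sh3bp1* and *Rogdi*.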

How the data were processed

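The authors trimmed the paired-end reads with Trimmomatic 0.39 after FastQC 0.11.7, aligned them with STAR 2.7.9a to GRCm38 with Gencode genes, and counted uniquely mapped primary alignments irrespective of strand with featureCounts 2.12.0. The deposited read counts, without scaling, were used here, and the deposited variance-stabilized tables were not. All columns were matched to a label, and 31 libraries were analysed. Tests ran in edgeR 4.0.16 (R 4.3.3), two-sided quasi-likelihood, over genes that reached 10 counts in 3 or more libraries of a fit, with TMM scaling and Benjamini-Hochberg adjustment over all genes tested (FDR 0.05), on the groups compared. SEs follow from log2FC and F, and the fit was tested on simulated data. CPM in the text were scaled by TMM over the 22 CD11b+ and over the 9 cortex libraries. DESeq2 1.42.0, other filters and scalings and the removal of each library were the alternatives. Coordinates and exon lengths are from Gencode M21, which holds 54349 of the 55401 gene IDs. The genes and lists were chosen with earlier results of these data known. Named list genes are the up to 4 called genes per list and comparison with the lowest adjusted p and a mean of at least 5 CPM. The relations to the neuron marker sum were added after the data were seen. Some genes that the rules for naming pick are not reported here. The labels name mice, 1 per library.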

Additional observations from a re-analysis of the deposited data

Results flagged for a closer look

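A single library stood apart from the others of its group in 6 of 54 combinations of gene and group (Dixon's test at the 95% level on groups of 4 to 7 libraries, of which chance gives about 1 in 20). In A-/Pwt/wt CD11b+ microglia mouse 223 was the lowest for *Spi1* (116 CPM, next 219), *Irf8* (174 CPM, next 283) and *Cebpa* (200.3 CPM, next 356). In A+/Pwt/wt CD11b+ microglia mouse 331 was the lowest for *Spi1* (173 CPM, next 202). For *Mef2d* in cortex, A+/Pwt/wt mouse 236 was the lowest of its group (231 CPM, next 257) and A+/Pki/ki mouse 216 the highest (288 CPM, next 233).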

How the results depend on the processing

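Of 9 genes, 5 were called in male KI microglia with TMM scaling, DESeq2 size factors, edgeR's own low-count filter and DESeq2's Wald test, and 4 without a filter, when *Mef2d* was not called. With scaling on 15 microglial genes the count was 0, and *Mef2d* (0.014), *Spi1* (0.069) and *Maf* (0.0030) had log2FC above 0. Leaving out 1 library gave counts of 0 to 7, while the genes called in all ran from 894 to 5439. In A+ females microglial scaling turned *Irf8* to −0.0075, and no alternative called any of the 9 in the KI comparisons of A+ microglia or cortex. In cortex, leaving out 1 library gave a log2FC of −0.0113 to 0.0301 for *Sall1* and −0.0722 to 0.0036 for *Mef2a*. For the transgenes, the count was 1 (*Maf*) with DESeq2's Wald test and with microglial scaling, and 0 to 1 with 1 library left out. Microglial scaling turned *Mef2d* to −0.18 and *Runx1* to −0.0106, and leaving out 1 library gave −0.17 to 0.0377 for *Mef2a* (0.0098 without A- mouse 242), −0.28 to 0.0178 for *Sall1* and −0.21 to 0.0345 for *Cebpa*, each highest without A+ mouse 331. For the difference of KI effects DESeq2's Wald test called 2 of the 9, and leaving out 1 library gave 0 to 8, while the genes called in all ran from 0 to 6199. Between tissues 8 to 9 were called. The cause of these changes was not tested. No paired analysis was possible because the groups compared share fewer than 2 mouse numbers.

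With 3 WT males, leaving out 1 of them leaves 2 libraries in that group. The proteins of these genes were not analysed here.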
